A study of Homo sapiens with 19 samples.

Results

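The H3K27ac comparison of Corin with DMSO in MOLM-13, an established line of human acute myeloid leukaemia, consists of 4 CUT&RUN libraries out of 19 in the series, taken by their antibody and treatment labels. In CUT&RUN an antibody guides a nuclease that releases the chromatin fragments carrying a mark. Corin replicates 1 and 2 came from cells given Corin and DMSO replicates 1 and 2 from cells given the vehicle, each for 24 h at a labelled 0.1 µM, a dose whose meaning is unclear for the vehicle. The 4 peak lists hold 102047 peaks in all: 34424 and 30029 after Corin, and 17599 and 19995 after DMSO. The H3K4me2 and H3K4me3 lists of the same treatments, 4 each, were used only beside the H3K27ac results, and the other 7 libraries of the series were not analysed here. The labels do not say whether replicates were separate cultures, so all tests measure only the spread between these libraries. The lists give positions and scores without read counts, and depth is unknown beyond the labelled minimum. MOLM-13 is a single cultured line that carries leukaemia-driving lesions of its own, and both treatments share that background.

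H3K27ac is the acetylation of lysine 27 of histone H3. It marks active promoters and enhancers, is written by acetyltransferases such as EP300 and is removed by histone deacetylases. The CoREST complex joins the deacetylases HDAC1 and HDAC2 to the demethylase LSD1, and Corin inhibits both activities. In myeloid cells the repressor GFI1 brings this complex to its target sites. The question asked here is which genes, positions and genomic contexts had more, wider or fewer H3K27ac peaks after the compound.

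Regions were formed by merging the 4 lists. Gained regions are those with a peak in both Corin lists and in neither DMSO list, and lost regions are the opposite. A region present in all 4 lists was called widened when both Corin libraries covered more of its bp than both DMSO libraries, and narrowed in the opposite case. The same counts for the replicate numbers, both replicate 1 libraries against both replicate 2 libraries, served as the measure of noise. Each count was made with all peaks and with the 17599 highest-scoring peaks of every list, the length of the shortest list, called the matched number below.

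The central 200 bp of 4 regions are printed to show what kind of sequence the calls refer to: the first and the third gained region, the first lost region and the first widened region of the ranking given in the processing description. They are read on the plus strand of hg38, with capitals at every match, on either strand, to the letters of a listed motif.
Gained, chr10:7492417-7492616, 79307 bp from SFMBT2: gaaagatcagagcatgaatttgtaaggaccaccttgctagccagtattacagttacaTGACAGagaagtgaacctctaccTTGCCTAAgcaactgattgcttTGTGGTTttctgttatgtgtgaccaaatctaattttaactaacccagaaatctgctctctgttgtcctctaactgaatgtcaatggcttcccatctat
Gained, chr15:69668153-69668352, at the start of a non-coding transcript: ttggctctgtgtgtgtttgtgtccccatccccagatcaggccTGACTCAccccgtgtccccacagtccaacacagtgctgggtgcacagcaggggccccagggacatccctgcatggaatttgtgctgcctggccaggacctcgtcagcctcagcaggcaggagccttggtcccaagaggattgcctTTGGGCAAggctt
Lost, chr6:16758981-16759180, in an intron of ATXN1: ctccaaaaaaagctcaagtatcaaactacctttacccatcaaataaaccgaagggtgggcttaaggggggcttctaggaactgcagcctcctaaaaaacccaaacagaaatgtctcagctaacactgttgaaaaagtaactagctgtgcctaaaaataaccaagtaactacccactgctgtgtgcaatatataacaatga
Widened, chr1:155973248-155973447, inside ARHGEF2: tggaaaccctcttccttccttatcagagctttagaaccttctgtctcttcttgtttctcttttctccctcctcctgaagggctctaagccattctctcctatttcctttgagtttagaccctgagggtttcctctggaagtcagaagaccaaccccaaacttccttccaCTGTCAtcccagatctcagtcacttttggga
The SFMBT2 window held matches for C/EBP factors (TTGCNNAA), RUNX factors (TGTGGTT) and MEIS factors (CTGTCA). These letters occur in 8.74%, 3.79% and 13.1% of the central 200 bp of all 41575 regions. The chromosome 15 window held the AP-1 letters (TGANTCA), found in 6.77% of such windows, and a C/EBP match. A MEIS match was the only one in the ARHGEF2 window, and none of the 17 listed motifs matched in the ATXN1 window. The centre of the second gained region, inside IL17RA, is not printed. Of the listed motifs it held only the E-box letters (CAGCTG), found in 11.9% of such windows.

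Most regions shared by the 4 lists were wider after Corin. Of 9497 regions with a peak in all 4 lists, 5147 (54.2%) were widened after Corin and 127 (1.34%) narrowed. The replicate split gave 1803 regions wider in replicate 1 (19%) and 807 wider in replicate 2 (8.5%), and the crosswise split, Corin replicate 1 with DMSO replicate 2 against the other two, gave 1340 and 247. With the matched number of peaks, 3908 of 7544 shared regions (51.8%) were widened and 92 (1.22%) narrowed, against 1520 (20.1%) and 685 (9.08%) by replicate number, while the crosswise counts were 1096 and 223. The result is one of bp: when covered lengths were multiplied so that all 4 lists had the same total, which takes the longer Corin lists out by construction, 588 regions were widened and 4481 narrowed. Scaled counts here and below therefore place a region or gene relative to the total peak length and do not test the treatment.

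**Figure D1:**
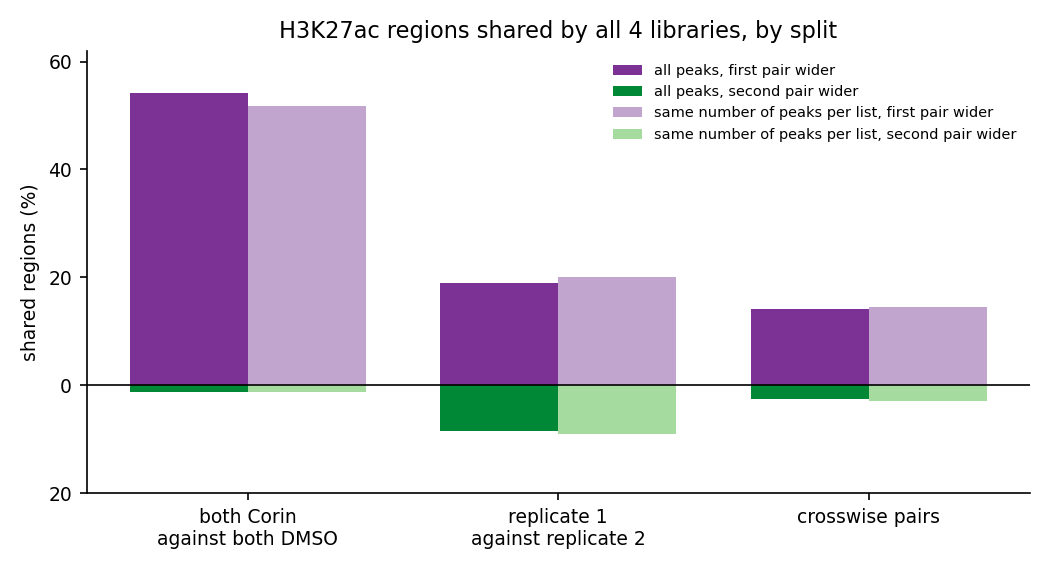
Share of H3K27ac regions present in all 4 libraries (y axis, percent) in which both libraries of the first pair cover more bp than both of the second (above zero), or the reverse (below zero), for 3 ways of pairing the libraries. The treatment split reaches 54.2% with all peaks and 51.8% with the matched number, against 19% and 20.1% for the replicate numbers, while the scaling to equal totals, which is not drawn, turns the treatment split over.

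The bp covered in a shared region had a median of 1285 and 1082 in Corin replicates 1 and 2 and of 729 and 812 in DMSO replicates 1 and 2. Both Corin values lay above both DMSO values. The median log2 ratio of Corin to DMSO was 0.67 within replicate 1 and 0.31 within replicate 2, so the direction held in both and the size differed. At the matched number the median peak width was 832 and 674 bp with Corin and 453 and 491 bp with DMSO (log2 ratio 0.67, SD 0.23, n = 2 per treatment). The exact two-sided permutation test gave p = 0.333, the smallest value that 6 arrangements of 2 against 2 libraries allow, so no list-level difference could pass 0.05. With all peaks the medians were 501.5, 457, 453 and 450 bp, and the log2 ratio of 0.08 was below its SD of 0.10. With only peaks scoring at least 100 they were 749, 644, 674 and 663 bp (log2 ratio 0.06), and the treatments overlapped. The matched number keeps every DMSO replicate 1 peak, down to a score of 50. In Corin replicates 1 and 2 it stops at scores of 112 and 105. Widths at the matched number therefore compare unlike score ranges.

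Very wide peaks showed the same order. Peaks over 2 kb numbered 2013 and 1131 after Corin and 487 and 530 after DMSO (log2 ratio 1.57, SD 0.59, exact permutation p = 0.333). Nearly all of them were among the highest-scoring peaks, where the counts were 1981, 1127, 487 and 529. Corin replicate 1 held the most in either case, and without it the comparison rests on 1 Corin library. Single Corin peaks also spanned several DMSO peaks. Of Corin replicate 1 peaks that met a DMSO peak, 16.0% and 15.5% joined at least 2 peaks of DMSO replicates 1 and 2, and of Corin replicate 2 peaks 12.02% and 10.92% did. In the other direction 2.86% to 6.53% of DMSO peaks joined at least 2 Corin peaks. Joining also occurred between replicates, in 12.9% of Corin replicate 1 peaks set against Corin replicate 2, in 5.40% the other way, and in 8.69% and 9.04% of peaks between the DMSO lists.

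Widened regions outnumbered narrowed ones in each of the 4 genomic contexts. Widened were 52.0% of 5257 shared promoter regions (within 1 kb of an annotated start site), 65.0% of 654 regions over exons, 54.5% of 2451 over introns and 57.7% of 1135 between genes. Narrowed regions made up 0.92% to 1.43% of each class. Within replicate 1 the median log2 ratio was 0.63 at promoters and 0.72 elsewhere, and within replicate 2 it was 0.25 and 0.41. Peaks over start sites reached further on both sides. At the 1376 protein-coding start sites that lay under a peak in all 4 libraries, the median reach upstream was 626.5 and 508 bp with Corin and 395 and 421 bp with DMSO. Downstream, into the gene, it was 879 and 747 bp with Corin and 560 and 653.5 bp with DMSO. The mean upstream reach was 691 ± 90.8 bp (SD, n = 2) and 514 ± 7.52 bp (SD, n = 2), and the downstream one 957 ± 111 bp and 726 ± 47.5 bp, each at an exact permutation p of 0.333.

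The other marks of the same treatments had smaller width ratios in these lists. The median log2 ratio of covered bp in shared regions was 0.28 and 0.07 within replicates 1 and 2 for H3K4me2, the substrate mark of LSD1, and 0.09 and 0.005 for H3K4me3, a mark of promoters. The H3K27ac ratio exceeded the H3K4me2 ratio by 0.32 and the H3K4me3 ratio by 0.45. Each difference had an exact permutation p of 0.333, the smallest possible, so a difference between marks was not shown. Widened regions made up 42.2% of shared H3K4me2 regions and 24.7% of shared H3K4me3 regions, with 4.72% and 9.32% narrowed.

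The named widened regions lay mostly inside genes. The region with the largest gap between treatments, chr1:155966103-155980592 over ARHGEF2, a microtubule-bound activator of RHOA, was covered over 14140 and 13007 bp with Corin and 7927 and 7840 bp with DMSO. A region of 6497 bp in an intron of TK2, the mitochondrial thymidine kinase, had 5742 and 5923 bp with Corin and 893 and 1625 bp with DMSO. In both, the Corin libraries lay well above the DMSO libraries. An intron of CCDC88C, chr14:91370917-91375722, held 4581 and 3675 bp after Corin against 520 and 337 bp. LDB1, an adaptor that links distant enhancers to promoters, had 5567 and 4637 bp over its promoter after Corin and 1554 and 1867 bp after DMSO. The INPP5D region, in the gene of the inositol phosphatase SHIP1 of blood cells, had 7772 and 7522 bp against 4417 and 4015 bp. KIAA0930 and COL23A1 also held a region of this ranking. Scaled to equal totals, TK2, KIAA0930, CCDC88C and LDB1 kept both Corin libraries above, ARHGEF2 and INPP5D overlapped between treatments, and COL23A1 was lower in both Corin libraries.

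Narrowed regions were few and small. The first lay over the shared promoter of TIMM9, a mitochondrial import factor, and KIAA0586, with 1384 and 1377 bp with Corin and 1626 and 1800 bp with DMSO. The promoters of ETFA, an electron carrier of fatty acid oxidation, and ATP5PD, a subunit of the mitochondrial ATP synthase, had 614 and 586 against 832 and 838 bp, and 449 and 405 against 648 and 689 bp. The other 2 lay at SLC39A11, a zinc transporter gene, and 62683 bp from S1PR3. The treatments did not overlap in any of these 5, since that was the rule. All 5 were also lower after Corin when scaled, by construction, because scaling lowers Corin lengths and raises DMSO lengths. With only peaks scoring at least 100 the difference at ETFA, ATP5PD and SLC39A11 turned to 181, 82.5 and 92 bp higher after Corin.

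Gained regions outnumbered lost ones, but the size of that difference depended on how many peaks each list contributed. With all peaks 4798 of 41575 regions (11.5%) were gained and 75 (0.18%) lost, while 1322 (3.18%) belonged to replicate 1 alone and 908 (2.18%) to replicate 2 alone. With the matched number 1197 of 26588 (4.5%) were gained and 418 (1.57%) lost. Gained and lost together (1615) then were fewer than the regions that parted the replicate numbers, 1307 (4.92%) and 1164 (4.38%), and more than the crosswise 878. Gained regions still outnumbered lost ones, where the replicate numbers gave near-equal counts. The crosswise split, which also sets no treatment apart, was itself unequal, with 539 against 339 at the matched number and 634 against 140 with all peaks, so an imbalance is not particular to the treatment. Among the top 2500 peaks of each list 182 regions were gained and 131 lost, against 290 and 306 for the replicate numbers, and among the top 10000 there were 712 and 307 against 836 and 824. The share of shared regions that were widened stayed between 49.4% and 51.8% over the same steps. With covered length matched in place of peak number, which leaves the Corin lists 6950 and 9854 peaks and the DMSO lists 17599 and 15808, the imbalance reversed to 133 gained and 1837 lost.

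**Figure D2:**
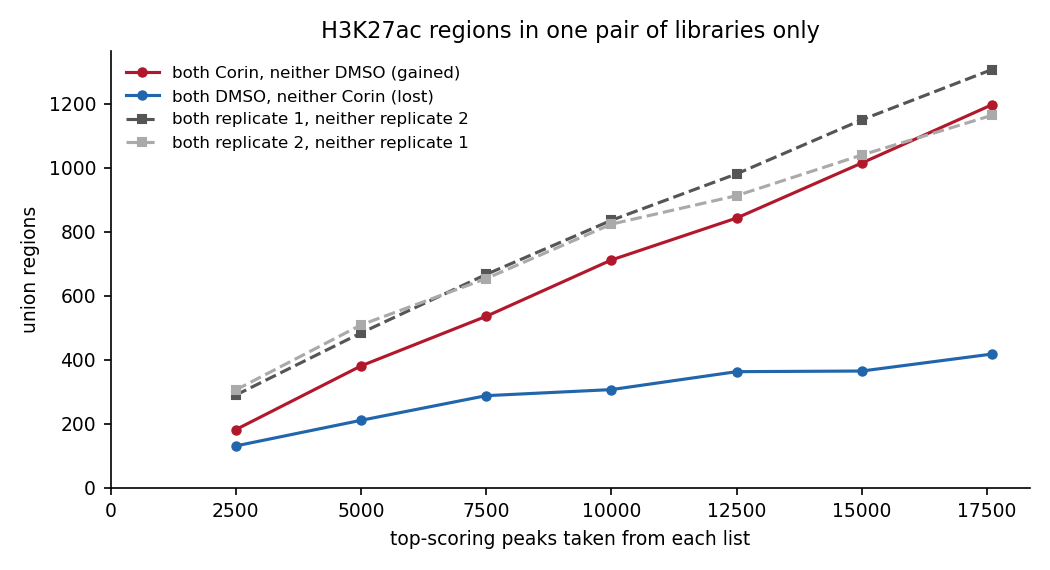
Number of union regions found in both libraries of one pair and neither of the other (y axis), by the number of top-scoring peaks taken from each list (x axis). Gained regions exceed lost ones at every step, from 182 against 131 to 1197 against 418, and lie below both replicate-number lines up to 15000 peaks.

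Peaks in gained regions ranked below those in shared regions, as did peaks of the replicate split. They had a median score percentile of 41.4 in Corin replicate 1 and 36.6 in Corin replicate 2, against 80.4 and 73.5 for peaks in shared regions. Peaks of regions in replicate 1 alone stood at 45.3 in Corin replicate 1, and of those in replicate 2 alone at 36.6 in Corin replicate 2. Peaks in lost regions were at 36.7 and 30.3 in the DMSO lists. Of the 1197 regions gained at the matched number, 1052 (87.9%) were also gained with all peaks. Of the 418 lost there, 61 were also lost with all peaks and 205 had peaks in all 4 lists once weaker peaks were counted. The mean covered length was 11.3 Mb larger after Corin than after DMSO, and shared regions made up 37.2% of that difference, gained regions 20.5% and regions found in a single library 20.8%.

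At the matched number 44.9% of gained regions were in introns, beside 40.8% of all regions, 49.4% and 36.9% of those in replicates 1 and 2 alone and 43.4% of crosswise ones. A further 20.6% lay between genes, 9.52% over exons and 25.1% at promoters, with a median distance of 6904 bp to the nearest start site. Shared regions were at promoters in 56.6% of cases. The promoter share of gained regions was close to the 25.6% of regions in replicate 1 alone and below the 45.3% of regions in replicate 2 alone, so it was not beyond the replicate split. Lost regions were at promoters in 39.5% of cases at the matched number and in 16% of the 75 lost with all peaks.

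**Figure D3:**
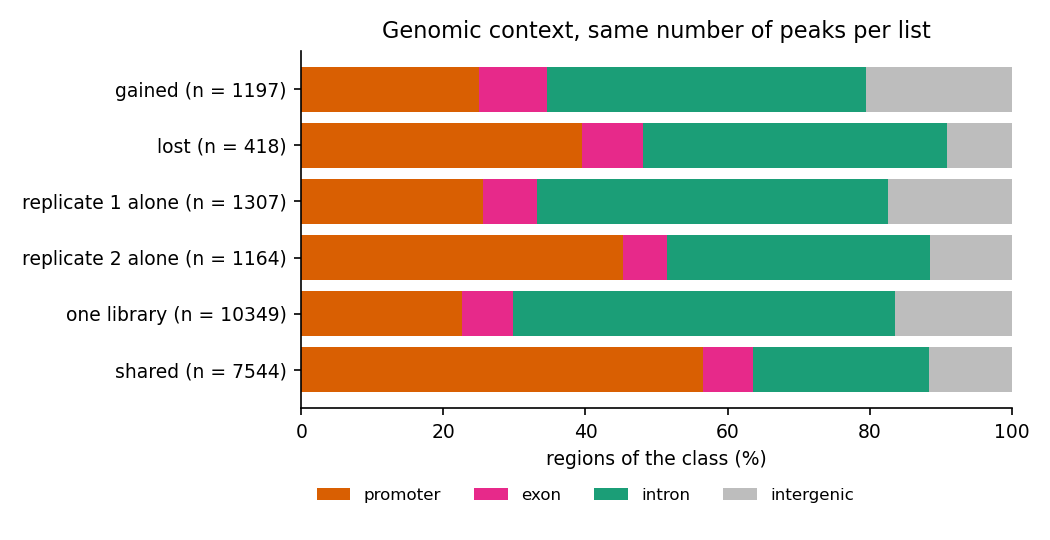
Percent of regions of each class (x axis) at promoters, over exons, in introns and between genes, with the matched number of peaks per list. Gained regions (25.1% at promoters) resemble regions of replicate 1 alone (25.6%), and shared regions hold the largest promoter share (56.6%).

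Outside promoters the gained regions had the following features at the matched number, where 897 were distal. H3K4me2 peaks were already present in both DMSO lists at 37.9% of them, beside 37.6% of all 16706 distal regions, 36.8% of those in replicate 1 alone and 69.7% of shared ones. H3K4me2 was itself gained at 11.7%, against 6.45% of all distal regions, 7.61% and 5.02% of those in replicates 1 and 2 alone, and 3.56% of the 253 lost distal regions. Motif letters were counted in the central 300 bp. The GFI1 letters (AAATCNCNG) occurred in 4.24% of gained regions, 2.78% of all distal regions and 2.36% and 2.20% of those in replicates 1 and 2 alone. AP-1 letters occurred in 14.4%, 12.4%, 13.2% and 9.89%. GATA letters (AGATAAG) occurred in 2.34%, 4.16%, 5.24% and 2.98%, and C/EBP letters in 14.2%, 15.8%, 19.4% and 12.7%. In the 253 lost distal regions AP-1 letters occurred in 13.8% and GFI1 letters in 1.98%. With all peaks the GFI1 letters occurred in 3.27% of gained, 3.17% of lost and 2.90% of all distal regions. Over the 17 motifs the gained share at the matched number lay above both replicate shares for 4 (AP-1, GFI1, MEIS and KLF/SP, GGGCGGG), below both for 6 (GATA, RUNX, MYB with AACTGNC, STAT with TTCCNGGAA, NF-Y with CCAAT and NRF1) and between them for 7, C/EBP among these. None of these shares was tested.

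The gained regions with the most coverage in their weaker Corin library were mostly far from protein-coding starts. The first, chr10:7490795-7494239, had 3445 and 2286 bp of H3K27ac after Corin and none after DMSO, with H3K4me2 over 587 and 648 bp with Corin and 0 and 264 bp with DMSO. The second, chr22:17095808-17098064, lay inside IL17RA, the receptor of interleukin 17, 10854 bp from its start, with 2257 and 1864 bp after Corin. At the third, chr15:69667150-69669355, the coverage after Corin was 2168 and 1856 bp. The centres of the first and the third are printed above. A region 157 bp from the start of SIGLEC9, an inhibitory sialic acid receptor of myeloid cells, had 2494 and 1595 bp after Corin, and H3K4me2 peaks lay there in all 4 libraries. The promoter of ATF1, a CREB family factor, had 2029 and 1582 bp after Corin and no H3K27ac peak after DMSO, although H3K4me3 covered 2246 to 2249 bp of it in every library. The other 3 of these 8 had CALHM3, BAHCC1 and TDRD15 as nearest protein-coding genes, 6630, 43731 and 206536 bp away.

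Lost regions with the most coverage were an intron of ATXN1 with 717 and 735 bp in the DMSO libraries, a region 51968 bp from FAM204A with 584 and 774 bp, and exons of ZBTB33 (487 and 556 bp), PIGB (451 and 510 bp) and ELP3 (446 and 573 bp). None had an H3K27ac peak after Corin. With only peaks scoring at least 100 the difference was 0 bp at ATXN1, FAM204A and PIGB, where no library then had a peak, and -243.5 and -286.5 bp at ZBTB33 and ELP3. At the first 4 of these H3K4me2 peaks were present in all 4 libraries, and at ELP3 in none.

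Some windows held several gained regions. Of the 100 kb windows, 144 held at least 2 gained regions and 23 at least 3, against 156 and 37 for regions in replicate 1 alone, and no expected number was computed. Gained counts per locus are at the matched number, and covered lengths are from all peaks. The densest, chr3:46900001-47000000, held 6 gained regions, 5 in introns and 1 at a promoter, around CCDC12 and NBEAL2, a gene needed for platelet granules. Its covered length was 14920 and 14666 bp with Corin and 2030 and 2654 bp with DMSO. ETV6, an ETS family repressor of blood stem cells, held 4 gained regions in its introns, of which 1 was not gained with all peaks, and the window also held 1 lost region. With all peaks 6 regions were gained there and none lost. The window was covered over 43157 and 33965 bp with Corin and 16515 and 18000 bp with DMSO. Downstream of FOS, a subunit of AP-1, 3 gained regions lay 4507, 5432 and 7606 bp from the start site and a further one lay 43725 bp upstream. That window had 10679 and 11346 bp against 5085 and 5121 bp. The window of HDAC7, a class IIa deacetylase, and VDR, the vitamin D receptor, held 4 gained regions and 13727 and 7890 bp against 3210 and 2982 bp. The last 2 of these 6 loci were at B4GALT3 and PPOX on chromosome 1 and in a window with no protein-coding gene on chromosome 8.

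For genes, coverage was the bp under peaks within 10 kb either side of the start site of each of 20007 protein-coding genes, of which 10529 had any. Both Corin libraries lay above both DMSO libraries at 5751 genes (54.6%) and below at 69 (0.655%). The replicate numbers parted 1289 (12.2%) and 1036 (9.84%), and the crosswise split 1159 and 166. At the matched number 3379 of 9535 genes (35.4%) were higher and 333 (3.49%) lower, against 1536 (16.1%) and 1452 (15.2%) by replicate number, while the crosswise counts were 1234 and 386. Scaled to equal totals, 1742 (16.5%) were higher and 2634 (25%) lower. That scaling sets the balance by construction, and 724 of the 1742 had no coverage in either DMSO library, so no factor could move them. Genes higher with all peaks and also at the matched number were 3311 (31.4%), and genes lower in both were 59 (0.56%).

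The model across genes made no call. limma, on log2(covered bp + 200) for the 9489 genes covered in at least 2 libraries, called 0 genes higher (0%) and 0 lower at a Benjamini-Hochberg adjusted p of 0.05. At an unadjusted p under 0.05 there were 2343 higher (24.7%) and 9 lower (0.0948%), and at the matched number 897 (10.8%) and 84 (1.01%) of 8333. At matched covered length the balance turned, with 197 higher and 1004 lower, and scaling to equal totals gave 836 and 672, with 0 genes called at the adjusted threshold in each. The smallest adjusted p was 0.119, shared by 775 genes. The median log2 difference over all genes tested was 0.70, and a gene's difference in the same fit is to be read against it. The median was 0.37 at the matched number, 0.38 with 1000 bp added in place of 200, and -0.04 after scaling to equal totals. Without DMSO replicate 2 the model called 592 genes higher and without Corin replicate 2 it called 39, with each lone library assumed to vary like the other group.

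The 15 genes named for the largest higher coverage at the matched number were all separated in both analyses by the rule that chose them, and their size follows from the same rule. Their log2 differences ran from 0.62 to 3.52. As a description of genes chosen for size, their unadjusted limma p ran from 0.000515 to 0.0469 and their adjusted p from 0.119 to 0.196. Scaled to equal totals, 6 kept both Corin libraries above (MYO1G, ENSG00000260851, NFE2, AKNA, ITGAL and ENSG00000285171), 7 overlapped, and CSK and GFI1 were lower in both Corin libraries.

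**Figure D4:**
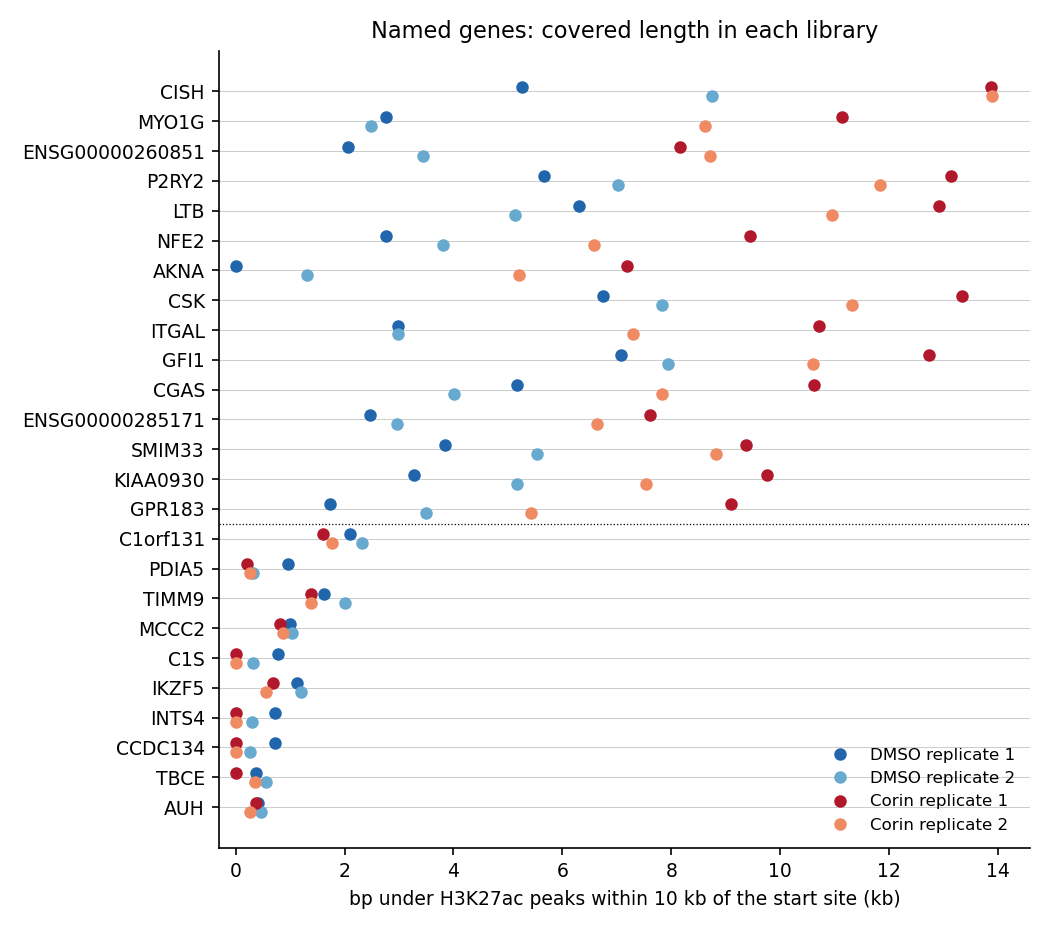
Covered length within 10 kb of the start site (x axis, kb) of the 15 named genes with the largest higher and, below the dotted line, the 10 with the largest lower coverage after Corin, 1 point per library. CISH reaches 13870 and 13890 bp after Corin against 5255 and 8756 bp after DMSO, and none of the 10 lower genes exceeds 2313 bp.

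CISH, a feedback inhibitor of STAT5 signalling at chr3:50606489-50611774, had the largest difference at the matched number. With all peaks it had 13870 and 13890 bp with Corin and 5255 and 8756 bp with DMSO. The Corin libraries were alike and the DMSO libraries lay further apart. Its log2 difference was 1.01 with an SE of 0.32 (limma adjusted p = 0.149). Just before the start site the treatments overlapped. Of the 250 bp there, peaks covered 184 and 250 bp with Corin and 199 and 250 bp with DMSO. That promoter is printed because it holds several letters of the STAT site, from RefSeq on hg38 (GRCh38.p14), in the gene's direction on the minus strand, limited to the stretch that lies in no annotated UTR, with matches to TTCNNGGAA in capitals.
CISH, chr3:50611775-50611907: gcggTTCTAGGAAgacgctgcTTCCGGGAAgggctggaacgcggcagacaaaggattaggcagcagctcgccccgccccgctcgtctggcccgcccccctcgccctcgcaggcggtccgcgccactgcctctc
The 250 bp window held 4 matches to these letters, 2 of them in the printed stretch. At least 1 match occurred in 3.86% of 35116 RefSeq promoters of that length and at least 4 in 5 of them. The stricter letters TTCCNGGAA matched 2 times, and 0.97% of promoters had any. The looser TTCNNGGAA is not among the listed motifs, and the lost ATXN1 window printed above also holds a match to it. The window of MAPKAPK3, which starts next to CISH, overlaps that of CISH.

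MYO1G and ITGAL also belong to the adhesion and cytoskeleton list, which was drawn up with earlier results known. MYO1G, a myosin of blood cells at chr7:44962662-44979088, had 11136 and 8612 bp with Corin and 2752 and 2477 bp with DMSO, a log2 difference of 1.83 with an SE of 0.22 (limma unadjusted p = 0.000515, adjusted p = 0.119). ITGAL, the alpha subunit of the integrin LFA-1, had 10708 and 7300 bp against 2977 and 2982 bp. In both genes H3K27ac covered less in every DMSO library than in either Corin library, and H3K4me2 over the same windows was 10775 and 10472 bp against 7928 and 8962 bp for MYO1G. CSK, the kinase that restrains SRC family kinases, had 13346 and 11315 bp against 6748 and 7824 bp. GPR183, an oxysterol receptor that guides leukocytes, had 9092 and 5417 bp against 1734 and 3493 bp. P2RY2, a receptor for extracellular nucleotides, had 13136 and 11828 bp against 5669 and 7017 bp, while within 2 kb of its start site the difference was 0 bp.

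CGAS and STING1, which act in cytosolic DNA sensing, were higher in both Corin libraries. CGAS, the sensor, had 10624 and 7829 bp with Corin and 5173 and 4005 bp with DMSO. STING1, the adaptor that receives its signal, lies in the window of the named gene SMIM33 and had 8502 and 8191 bp against 3949 and 5718 bp, with a limma adjusted p of 0.154. CGAS and STING1 were put side by side after their values were seen. Scaled to equal totals, the treatments overlapped at SMIM33, STING1 and CGAS.

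Regulators of transcription were named too. GFI1, the repressor that recruits CoREST, had 12725 and 10612 bp with Corin and 7076 and 7933 bp with DMSO, a log2 difference of 0.62 that lay below the median of all genes. NFE2, a factor of the megakaryocyte and erythroid lineages, had 9455 and 6573 bp against 2761 and 3804 bp, a log2 difference of 1.23 with an SE of 0.28. AKNA, an AT-hook protein of leukocytes, had 7185 and 5201 bp against 0 and 1315 bp. The window of ENSG00000285171 on chromosome X is shared with IL2RG, the common gamma chain of cytokine receptors, which had 7609 and 6645 bp against 2475 and 2956 bp. LTB, a TNF superfamily ligand, had 12918 and 10957 bp against 6297 and 5128 bp. KIAA0930 and ENSG00000260851, a gene beside TK2, complete the 15.

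The 10 genes named for lower coverage had little of it in any library. They ran from 0 to 1778 bp after Corin and from 262 to 2313 bp after DMSO. C1S, a complement protease gene, INTS4, a subunit of the Integrator complex, and CCDC134 had no peak after Corin and 775 and 311, 715 and 293, and 714 and 262 bp after DMSO. Each had an unadjusted limma p under 0.05 and none of the other 7 did. The adjusted p ran from 0.127 to 0.702. Within 2 kb of the start site the difference was 0 bp at C1S and MCCC2, and at C1S it was also 0 bp with peaks scoring at least 100. IKZF5, an Ikaros family gene, had 684 and 558 bp with Corin and 1122 and 1201 bp with DMSO, but was 60 bp higher after Corin when only peaks scoring at least 100 were used. MCCC2 and AUH, both enzymes of leucine breakdown, had 808 and 870 against 995 and 1038 bp, and 381 and 261 against 408 and 470 bp. The others were C1orf131, PDIA5, a protein disulfide isomerase, TIMM9 and TBCE, a tubulin folding cofactor. H3K4me2 covered the windows of these genes in all libraries except that of C1S, where no library had an H3K4me2 or H3K4me3 peak.

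Gene lists were read against the 31.4% of covered genes that were higher in both analyses and the 16.5% that were higher after scaling. All lists were drawn up with earlier results of these data known. Some members share windows, and some are also among the genes named for size. Shares above the background are therefore a description and were not tested. No member of any list had a limma adjusted p under 0.05. Of 15 covered genes of acute myeloid leukaemia and myeloid identity, 13 were higher in both analyses, with a median difference of 2390.5 bp beside 445 bp over all covered genes. Their median log2 difference was 0.70 (0.16 to 1.51), the same as the 0.70 of all genes tested. CEBPA, a granulocyte fate factor, had 9387 and 7666 bp with Corin and 3551 and 5818 bp with DMSO. HOXA9, a driver of self-renewal, had 9670 and 9070 bp against 5006 and 6880 bp. MEIS1, its partner, had 5996 and 4196 bp against 2702 and 2920 bp. All 3 were covered in both DMSO libraries. After scaling 1 member (CSF1R, at 0 in both DMSO libraries) was higher and 9 were lower. CEBPB was the only covered member with overlapping treatments in every analysis but the scaled one, where it was lower.

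Of the granule genes 6 of 9 covered members were higher in both analyses, 1 was higher and 4 lower after scaling, and the median log2 difference was 0.71. ELANE, the neutrophil elastase gene, had 10193 and 7983 bp with Corin and 5104 and 6715 bp with DMSO, in a cluster it shares with PRTN3 and AZU1, whose windows overlap. CEBPE, a factor of late granulocyte maturation, had 3030 and 2888 bp against 1288 and 863 bp.

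Of 13 covered monocyte genes 10 were higher with all peaks (beside 54.6% of all genes) and 4 in both analyses, at the background share. The 9 that were higher after scaling include 7 with no coverage in either DMSO library, which no factor could move. Most of these had short coverage after Corin. FCGR2A, an immunoglobulin receptor, had 1092 and 1251 bp after Corin, ITGAM, the integrin CD11b, 706 and 378 bp, IRF8, a monocyte fate factor, 1462 and 569 bp, and CD163, a scavenger receptor, 212 and 193 bp. CD86, a co-stimulatory ligand, had 500 and 1149 bp, and was the only one of these 5 that kept peaks in both Corin libraries at the matched number. LYZ, the lysozyme gene, had 5963 and 4344 bp with Corin and 1246 and 2679 bp with DMSO. CD14, the endotoxin co-receptor, had 939 and 901 bp against 0 and 339 bp. LYZ and CD14 were higher in all 3 analyses. S100A8, S100A9, CD36 and KLF4 were among the 7 members with no peak in any library.

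Of 16 covered adhesion and cytoskeleton genes 12 were higher in both analyses, with a median log2 difference of 1.58 over the 15 tested, on a scale that depends on the 200 bp added for members near 0. After scaling 9 were higher, 3 of them at 0 in both DMSO libraries. Beside MYO1G and ITGAL, WAS, the Wiskott-Aldrich actin regulator, had 1840 and 1928 bp with Corin and 430 and 574 bp with DMSO. ICAM3, a ligand of LFA-1, had 1565 and 1858 bp against 396 and 0 bp, and PECAM1 1696 and 1066 bp against 330 and 0 bp. SELPLG, the selectin ligand, had 10028 and 8163 bp against 5711 and 4451 bp and overlapped between treatments after scaling. ITGA4, MYO1F, DOCK2 and CORO1A were lower after scaling.

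In the TNF and NF-kB list 9 of 14 covered members were higher in both analyses and 5 after scaling, none of the 5 at 0 in both DMSO libraries, and the median log2 difference was 1.37. TNF and LTA lie beside LTB and share peaks with it: TNF had 8727 and 6885 bp with Corin and 2864 and 1938 bp with DMSO. TNFRSF1B, a TNF receptor, had 3909 and 3240 bp against 212 and 928 bp. TNFAIP3 and NFKBIA, inhibitors of NF-kB, had 4240 and 1842 against 0 and 288 bp, and 772 and 1005 against 0 and 298 bp. NFKB1 itself overlapped between treatments and was lower after Corin at the matched number.

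Among cytokine signalling genes 6 of 16 covered members were higher in both analyses, near the background, and 3 after scaling. PIM1, a kinase target of STAT factors, had 2759 and 1997 bp with Corin and 0 and 772 bp with DMSO, and IL6R 4597 and 2814 bp against 534 and 1408 bp. SOCS1, JAK1 and the neighbouring STAT5A and STAT5B, whose shared coverage was 248 to 413 bp, overlapped between treatments, and the STAT5 pair was lower after scaling. Of 5 covered MHC class II genes 3 were higher in both analyses. CIITA, the master activator of the class, had 1725 and 1609 bp against 743 and 914 bp, and HLA-DMB 2716 and 2169 bp against 0 and 306 bp, while 7 class II genes, HLA-DRA among them, had no peak. Of 9 covered interferon response genes 3 were higher with all peaks and 1 in both analyses.

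**Figure D5:**
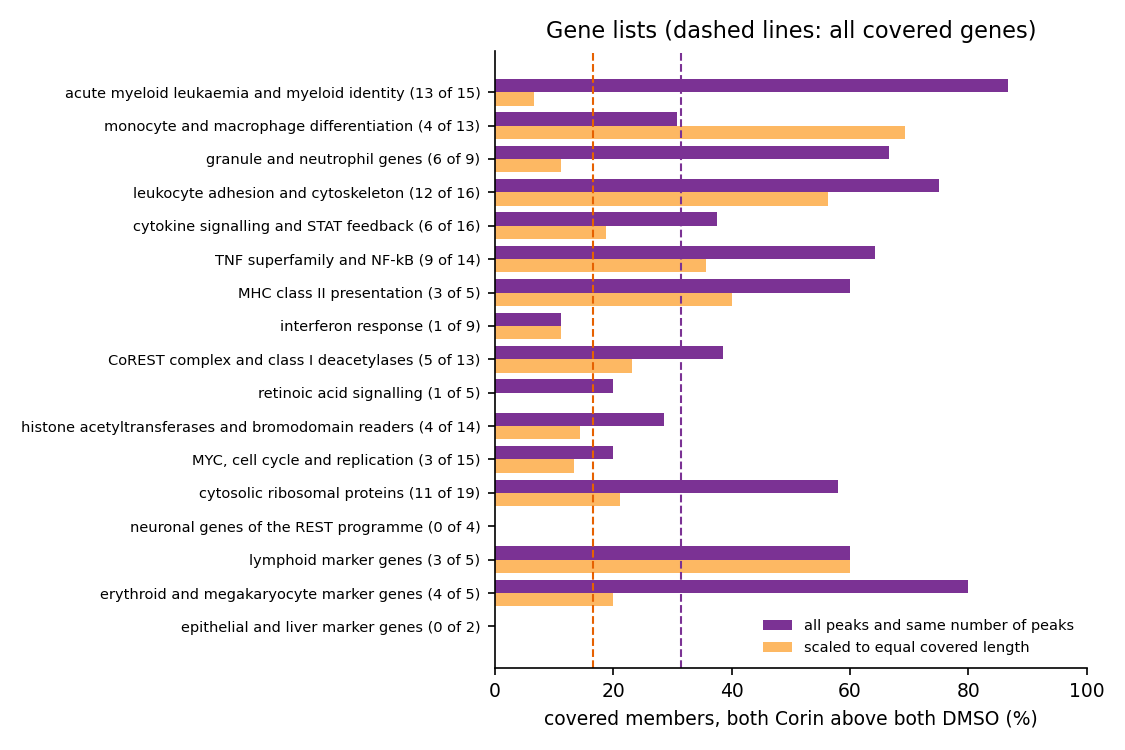
Percent of covered members of each gene list with both Corin libraries above both DMSO libraries (x axis), in both unscaled analyses (purple, counts in brackets) and after scaling to equal covered length (orange), with dashed lines at 31.4% and 16.5% for all covered genes. Myeloid identity genes have the highest share without scaling (13 of 15), and 7 of the 9 monocyte genes that are higher after scaling are at 0 in both DMSO libraries, where scaling cannot move a call.

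Genes of the machinery itself were mixed. In the CoREST and class I deacetylase list 5 of 13 covered members were higher in both analyses. ZMYM2, a zinc finger partner of the complex, had 2596 and 2268 bp with Corin and 750 and 868 bp with DMSO, and REST, the neuronal gene repressor, 1472 and 1410 bp against 385 and 600 bp. Both were higher in all 3 analyses. KDM1A, the gene of LSD1, had 1334 and 770 bp against 1074 and 297 bp and overlapped between treatments. Of 14 covered acetyltransferase and bromodomain genes 10 were higher with all peaks and 4 in both analyses, with KAT8 at 2024 and 3038 bp against 311 and 611 bp. Of 15 covered cell cycle genes 6 were higher with all peaks and 3 in both analyses, among them the kinase inhibitors CDKN1A with 4783 and 5609 bp against 2548 and 3492 bp and CDKN2D, while MYC overlapped at 1455, 475, 515 and 613 bp in Corin replicates 1 and 2 and DMSO replicates 1 and 2. Of 5 covered retinoic acid signalling genes 1 (RXRA) was higher with all peaks and in both analyses, and RARA, at 2531 and 898 bp against 110 and 1273 bp, overlapped. Of 19 covered ribosomal protein genes, active in every cell, 13 were higher with all peaks and 11 in both analyses. RPS19, with 6485 and 5886 bp against 1518 and 1273 bp, had the smallest unadjusted limma p of all genes tested (0.000212, adjusted p = 0.119).

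Markers were read to check the label of the line and to show where other lineages stood. Of 8 myeloid leukaemia markers 7 had coverage within 10 kb of the start site in all 4 libraries. CSF1R was the exception, with 354 and 259 bp after Corin and none after DMSO. Over the start site itself only SPI1 had a peak in all 4 libraries. CEBPA and MPO lacked one in DMSO replicate 1 and FLT3 in DMSO replicate 2. CD33, CSF1R, HOXA9 and MEIS1 had none there in any library. CD3D, CD3E, CD3G and LCK of T cells were at 0 in every library, as were MS4A1 and PAX5 of B cells, GATA1 and ITGA2B of the erythroid and megakaryocyte lineages, and CDH1, KRT5 and ALB of epithelium and liver. CD79A of B cells had 4701 and 5504 bp with Corin and 1657 and 626 bp with DMSO. NKG7, a granule gene of natural killer cells, had 3601 and 5392 bp against 1427 and 1271 bp. Of 19 neuronal genes repressed through REST, 15 had no peak in any library and 0 of the 4 others were higher in both analyses. Higher in both analyses were 3 of 5 covered lymphoid marker genes (CD4 and NKG7 among them), 4 of 5 erythroid and megakaryocyte ones (EPOR, TFRC, GP1BA and NFE2) and 0 of 2 epithelial and liver ones. The part of these lineage markers in the other results was not tested. Fewer cells that carry a mark and less of the mark per cell cannot be told apart in these bulk libraries.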

How the data were processed

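The deposited lists, 1 per library, give each peak's position and a score. The score deposited by the authors has a lowest value of 50 and no stated definition, and served here for ranking and thresholds inside each list. Per the submitters' processing notes, Trim Galore, Bowtie2, Picard and MACS2 were used with GRCh38, and versions are not given in the sources used here. Per the labels, 150 bp paired ends were read to at least 5000000 reads per library, and depth is otherwise unknown, so its effect on peak number was not separated from the treatment. Members and lists were chosen with earlier results of these data known.

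Lists were merged with Python 3.11.15, numpy 2.4.6 and pandas 2.3.3, sequences were read with pysam 0.24.0, and regions were annotated with GENCODE release 44, and gene coverage was fitted in R 4.3.3 with limma 3.58.1 with trend, which was tested on simulated data. Promoter regions lie within 1 kb of a start site of a protein-coding or long non-coding gene, and nearest genes are protein-coding. Ties in score at the matched number were broken by a seeded draw. Named genes are the 15 highest and 10 lowest by difference at the matched number among genes separated in both analyses, 1 per set of overlapping windows. Named gained, lost, widened and narrowed regions are the first 8, 5, 8 and 5 by coverage in the weaker library that has them, or by the gap between treatments, and loci the 6 windows of 100 kb with most gained regions. Deviations of same-numbered libraries correlated at 0.27 over 10529 genes. With 2 pairs and no label saying what a number shares, they were not taken as pairs in the main fits. Library numbers inside the peak names put replicate 1 of both treatments in one run of numbers and replicate 2 in another. Alternatives were the matched number, matched length, a score of at least 100, other presence and merging rules, other windows and pseudocounts, the replicate block, each library left out and, added after seeing the data, scaling to equal covered length. Some features are not reported here.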

Additional observations from a re-analysis of the deposited data

How the results depend on the processing

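Matching covered length reversed peak number (log2 ratio -1.01) and the promoter share of peaks (4.94 percentage points, -9.33 with all peaks). At the matched number the promoter share differed by -2.41 points (SD 2.28), and covered length by a log2 ratio of 0.59 against 0.96. Matched covered length gave 133 gained, 1837 lost, 2145 widened and 60 narrowed regions and 1292 higher and 1466 lower genes. The matched number gave 1197 gained and 418 lost regions and 3379 higher and 333 lower genes. A score of at least 100 gave 35 lost, 2544 widened and 51 narrowed regions, and turned the differences of IKZF5 and of the narrowed regions at ETFA, ATP5PD and SLC39A11 to 60, 181, 82.5 and 92 bp. Merging across 1000 bp gave 3191 gained, 49 lost and 75 narrowed regions, and presence over 50% of a region 1685 widened and 72 narrowed. Scaling to equal covered length gave 588 widened and 4481 narrowed regions and 1742 higher and 2634 lower genes, and turned CSK, GFI1 and the regions at ARHGEF2, INPP5D and COL23A1 to -1386, -2233, -1327, -410 and -5283 bp.

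Leaving out 1 library loosens each definition. Gained regions then ran from 6726 (DMSO replicate 1 left out) to 15945 (Corin replicate 2 left out), lost from 199 to 1479, widened from 5846 to 8567, narrowed from 419 to 1269, higher genes from 6650 to 8239, lower genes from 196 to 755, genes called higher by limma from 0 to 592 and lower from 0 to 0.

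With the replicate block, limma called 0 genes at an adjusted p of 0.05 and 2719 higher and 9 lower at an unadjusted p under 0.05. The list-level values with the block were 0.78 for peak number, 0.96 for covered length, 0.08 for median width and -9.33 for the promoter share, each with an exact sign-flip p of 0.5, the smallest that 2 pairs allow. The block changed no call. No matched-length value of covered length and no matched-number value of peak number exists. For named genes and regions 170 and 156 alternative values stayed within the replicate SD and 52 and 46 moved further without turning. Among these, the difference was 0 at P2RY2, MCCC2 and C1S within 2 kb, at C1S and the lost regions at ATXN1, FAM204A and PIGB with a score of at least 100, and at the gained regions at IL17RA and BAHCC1 with matched length. Peak lists without reads do not show what depth contributes to the longer Corin lists.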
